A study of Schmidtea mediterranea with 28 samples.

Results

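The transcripts esrp-1 (comp5053_c0_seq1) and esrp-2 (comp7995_c0_seq1) of the planarian Schmidtea mediterranea were followed through 28 RNA-Seq libraries. They were taken by their identifiers, which the study pairs with these names, and are 2 of the 22944 transcripts counted in each library. Vertebrate ESRP proteins, after which the planarian genes are named, are RNA-binding splicing regulators of epithelial cells: they bind pre-mRNA near alternative exons and promote the exon choices that mark epithelia, for example in the FGF receptor FGFR2. They are known for being lost when epithelial cells turn mesenchymal. In planarians, neoblasts are the dividing stem cells that renew all other cell types, the epidermis included.

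All animals were of the asexual Berlin-1 strain, which the study's methods trace to a single individual, so the libraries represent 1 clonal line. Dissociated cells were sorted into X1, the cells with double DNA content and rich in neoblasts, X2, with single DNA content and low calcein staining, and Xins, with single DNA content and high calcein staining. The 19 sorted libraries came from wild type animals (1 X1, 1 X2 and 2 Xins), from control(RNAi) animals injected with dsRNA for GFP (2 X1, 1 X2, 2 Xins), and from bruli(RNAi) and mbnl(RNAi) animals (2 X1, 1 X2 and 2 Xins each). bruli is a neoblast CELF-family gene, and mbnl(RNAi) was directed at several muscleblind-family genes, which regulate splicing. The other 9 libraries were from whole worms, 1 each for control(RNAi), bruli, celf, esrp, mbnl, nova, ptbp, rbfox1 and rbfoxS RNAi, the last being dsRNA against several rbfox genes. dsRNA was injected on 3 consecutive days at 1 µg/µl per dsRNA and the animals were kept at 20 °C. Replicate numbers came from the labels, which do not say whether numbered libraries came from separate animals, so p-values measure only the spread between these libraries, which may be technical.

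The esrp(RNAi) worms received dsRNA against both genes. The primers used to make the dsRNA and probe templates are printed 5′ to 3′ as the study gives them, under its gene names. No transcript sequence was used here, so their match to the transcripts was not checked. Capitals mark a run of 9 bases in the first esrp-1 primer whose reverse complement stands in the second esrp-2 primer.
esrp-1 primer 1: TCCAAATGCagaatgctctcta
esrp-1 primer 2: cggatgttattccaaccttgat
esrp-2 primer 1: aactcaatggagatgcctttgt
esrp-2 primer 2: gtgGCATTTGGAcagagtgata
Each primer is 22 bases long, and the remaining bases of the primers share no run of that length. The positions of the primers on the transcripts were not determined here.

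Library totals ranged from 12772545 to 34950244 counts, so the level that a count of 0 allows (3 counts) was between 0.0858 and 0.235 CPM (counts scaled by the library total). Both genes lay far above it, with 155 to 4502 counts for esrp-1 and 97 to 967 for esrp-2. The fraction labels were compared with marker transcripts. Summed TMM-scaled CPM (CPM after edgeR's scaling for library composition) of 5 neoblast markers (2 PIWIL1-like, 2 DDX4-like and bruli) was 14600 to 15200 in unperturbed X1, 4170 to 4900 in X2 and 434 to 741 in Xins. That of 8 markers of differentiated cells (celf-2, MSI1, MSI2, RBPMS and rbfox-2 and 3 ELAVL4-like transcripts) was 49.2 to 61.7, 153 to 159 and 153 to 320. Of these 8, 7 were called lower in X1 than in Xins, and the ELAVL4-like comp10994_c0_seq1 was called higher (43.9 against 15.8, a log2 difference of 1.22, edgeR adjusted p = 0.000887) and made up most of the X1 sum. No marker of either list was at 0 in any library. Both lists were chosen with earlier results of these data known, so they are not an independent check of the labels. rbfox-2 is on the differentiated list, but rbfox-1 (log2 difference 2.86, called higher in X1), rbfox-3 (-4.68, called lower) and a second MSI1-like transcript are not. Unperturbed here means control(RNAi) and wild type libraries together. Xins wild type replicate 2 stood apart, with a differentiated-marker sum of 153 against 264 to 320 in the other 3 unperturbed Xins libraries, and with the lowest esrp-1 and the highest esrp-2 of all 8 Xins libraries. The main differences between unperturbed X1 and Xins are given with and without it, and other comparisons with it unless stated.

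Transcripts of esrp-1 were about 4 times as abundant in Xins as in X1, with X2 between them and closer to X1. In unperturbed X1 the TMM-scaled CPM of esrp-1 was 20.3 and 18.2 in control(RNAi) replicates 1 and 2 and 19.5 in wild type, a mean of 19.3 ± 1.09 (SD, n = 3). In X2 it was 27.2 in control(RNAi) and 36.0 in wild type, a mean of 31.6 ± 6.22 (SD, n = 2). In Xins it was 76.4 and 103 in control(RNAi) and 92.9 and 51.1 in wild type replicates 1 and 2, a mean of 80.9 ± 22.8 (SD, n = 4), or 90.9 ± 13.6 (n = 3) without wild type replicate 2. The 3 fractions did not overlap, and the X1 libraries differed little among themselves.

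esrp-2 showed the same order of means with a smaller step and more spread. Its TMM-scaled CPM in X1 was 15.5 and 8.87 in control(RNAi) and 9.37 in wild type, a mean of 11.2 ± 3.68 (SD, n = 3). In X2 it was 12.9 in control(RNAi) and 19.3 in wild type, a mean of 16.1 ± 4.58 (SD, n = 2). In Xins it was 23.8 and 15.7 in control(RNAi) and 16.6 and 35.9 in wild type replicates 1 and 2, a mean of 23.0 ± 9.31 (SD, n = 4), or 18.7 ± 4.45 (n = 3) without wild type replicate 2. The highest X1 library lay just under the lowest Xins library, and X2 overlapped both other fractions.

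**Figure D1:**
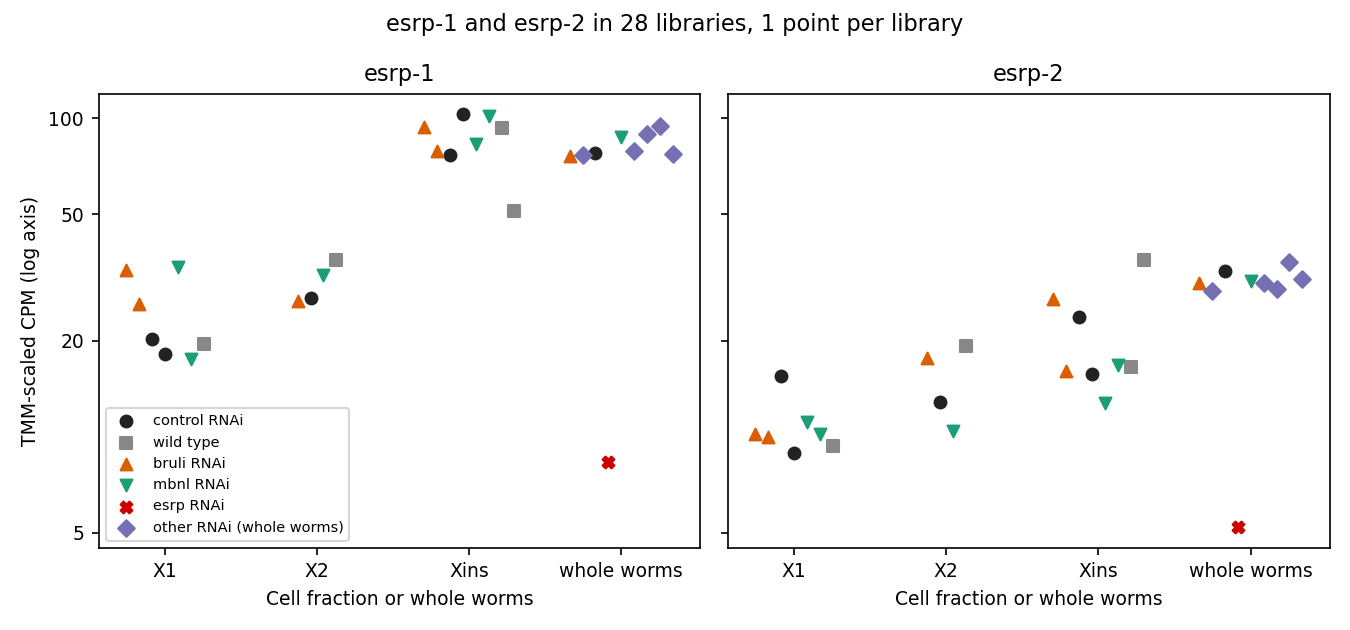
TMM-scaled CPM (log axis) of esrp-1 and esrp-2, 1 point per library, by cell fraction and in whole worms. esrp-1 lies between 17.6 and 34.0 in X1 and between 51.1 and 103 in Xins, esrp-2 spans 8.87 to 15.5 in X1 and 12.8 to 35.9 in Xins, and the whole worms injected with esrp dsRNA are the lowest point in both panels.

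With edgeR's quasi-likelihood test over the 9 unperturbed sorted libraries and 12665 transcripts, both genes were lower in X1 than in Xins. esrp-1 differed by -2.31 on the log2 scale (SE 0.26, 95% interval -2.89 to -1.73, adjusted p = 3.23e-05) and esrp-2 by -1.28 (SE 0.38, -2.13 to -0.43, adjusted p = 0.0111). Being lower in X1 was common: 5481 transcripts, 43.3% of those tested, were called lower, and 4819 higher. In bulk samples fewer cells of a type and less RNA per cell cannot be told apart. The esrp-1 difference was called whichever library was left out, and without Xins wild type replicate 2 it was -2.54. That of esrp-2 was -1.04 without that library (adjusted p = 0.0176), but lost its call without X1 control(RNAi) replicate 2 or without the X1 wild type library (adjusted p = 0.057 for both). Within control(RNAi) libraries alone it was -0.86 (adjusted p = 0.0879), whereas esrp-1 was -2.38 (adjusted p = 0.000333), and against the 2 wild type Xins libraries the single wild type X1 library was lower by log2 differences of -0.83 and -1.94 for esrp-2 and of -2.25 and -1.39 for esrp-1.

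The difference of esrp-2 between X1 and Xins also depended on the scaling. The median over all transcripts was -0.15 with TMM, -0.51 on the deposited cRPKM values and 0.16 after quantile normalization, so that esrp-2 stood at -1.13, -0.88 and -0.38 relative to the median. Under quantile normalization its difference of -0.22 was not called (limma, adjusted p = 0.56). esrp-1 stood at -2.16, -1.97 and -1.91 relative to the same medians and was called each time. Of the calls, 46.8% were higher in X1 with TMM, 37.4% on cRPKM and 53.5% after quantile normalization.

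X2 lay below Xins for esrp-1 by -1.61 (SE 0.29, -2.26 to -0.95, adjusted p = 0.00158), in a comparison in which 33.7% of transcripts were called lower. For esrp-2 the difference of -0.77 was not called (SE 0.42, -1.73 to 0.19, adjusted p = 0.141). Between X2 and X1 neither gene was called, where 46.7% of transcripts were called in 1 direction or the other. esrp-1 was 0.71 (SE 0.28, 0.07 to 1.34, adjusted p = 0.0666) and esrp-2 0.51 (SE 0.43, -0.47 to 1.49, adjusted p = 0.357). The esrp-1 value is close to the threshold: without Xins wild type replicate 2 it was 0.73 with an edgeR adjusted p of 0.017. That library is in neither fraction compared, but leaving it out changed the filter, the scaling and the shared estimate of spread. X2 had a single library per treatment, and X2 minus X1 for esrp-1 was 0.50 within control(RNAi) and 0.89 within wild type.

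**Figure D2:**
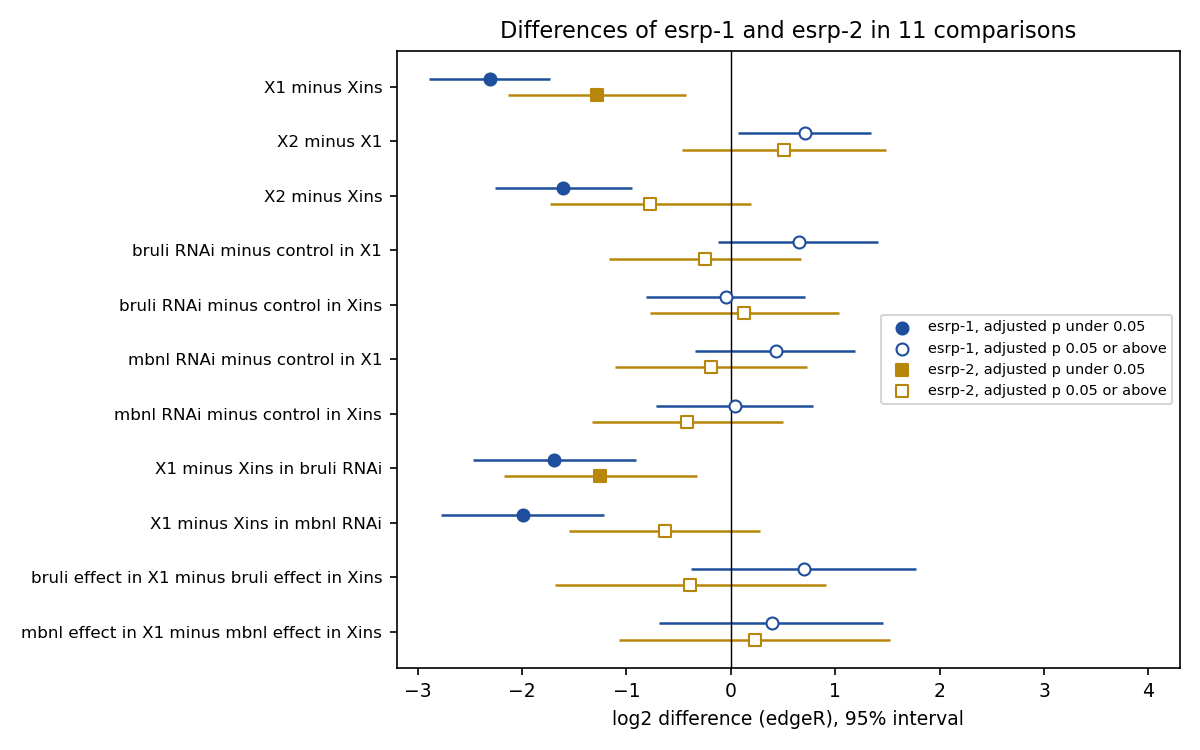
Log2 differences (edgeR) of esrp-1 and esrp-2 in 11 comparisons, with 95% intervals, filled where the adjusted p is under 0.05. esrp-1 is filled in the 4 comparisons of X1 or X2 with Xins and esrp-2 in 2 of them, while the intervals of all RNAi effects and of their differences between fractions include 0.

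The balance between the 2 genes was compared per transcript length with cRPKM, the deposited level per mappable kilobase, scaled to library size. The lengths implied by the files were near equal, 2.84 kb for esrp-1 and 2.93 kb for esrp-2. esrp-1 was the more abundant gene in all 28 libraries, and among transcripts with counts it stood at the 60.3 to 67.7 percentile of cRPKM in X1 and the 74.1 to 87.1 percentile in Xins. esrp-2 stood at the 50.2 to 57.6 percentile in X1 and the 46.9 to 66.3 percentile in Xins, so its rank among transcripts did not separate the fractions as that of esrp-1 did. The 74.1 and the 66.3 were both in Xins wild type replicate 2.

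In unperturbed X1 the ratio of esrp-1 to esrp-2 cRPKM was 1.35 and 2.11 in control(RNAi) replicates 1 and 2 and 2.14 in wild type. In X2 it was 2.18 in control(RNAi) and 1.92 in wild type. In Xins it was 3.30 and 6.79 in control(RNAi) and 5.77 and 1.47 in wild type replicates 1 and 2, where the last, with an exact 95% counting interval of 1.35 to 1.60, lay inside the X1 range and the other 3 above it. These intervals cover counting error only. The log2 ratio differed by -1.02 between X1 and Xins, from a mean of 0.87 ± 0.38 (SD, n = 3) to 1.89 ± 1.00 (SD, n = 4), and a two-sided exact permutation test did not reach the threshold (p = 0.171, adjusted over the 3 pairs of fractions 0.5, smallest possible p = 0.0286). X2 minus Xins was -0.86 (exact permutation p = 0.333, smallest possible 0.0667) and X2 minus X1 was 0.16 (exact permutation p = 0.8, smallest possible 0.1). Without Xins wild type replicate 2 the X1 to Xins difference was -1.47, with non-overlapping libraries and the smallest p that 3 against 3 allow, 0.1.

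When the bruli(RNAi) and mbnl(RNAi) libraries were included, the ratio was lower in X1 than in Xins by -0.96 on the log2 scale over 7 and 8 libraries (exact permutation p = 0.0154, adjusted over the 3 pairs of fractions 0.0462). For X2 against Xins it was -1.05 over 4 and 8 libraries (exact permutation p = 0.0323, adjusted 0.0485). Without Xins wild type replicate 2 these were -1.18 and -1.27. The permutation treats libraries of different treatments and shared replicate numbers as exchangeable. Within treatment and number, the ratio was lower in X1 in 6 of 6 pairs, by log2 differences from -1.81 in mbnl(RNAi) replicate 2 to -0.07 in bruli(RNAi) replicate 1. All 8 Xins ratios lay between 1.47 and 6.79 with a median of 5.40, and the 7 X1 ratios between 1.35 and 3.40 with a median of 2.14. The highest X1 ratio was that of bruli(RNAi) replicate 1 and lay above 2 of the Xins ratios.

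**Figure D3:**
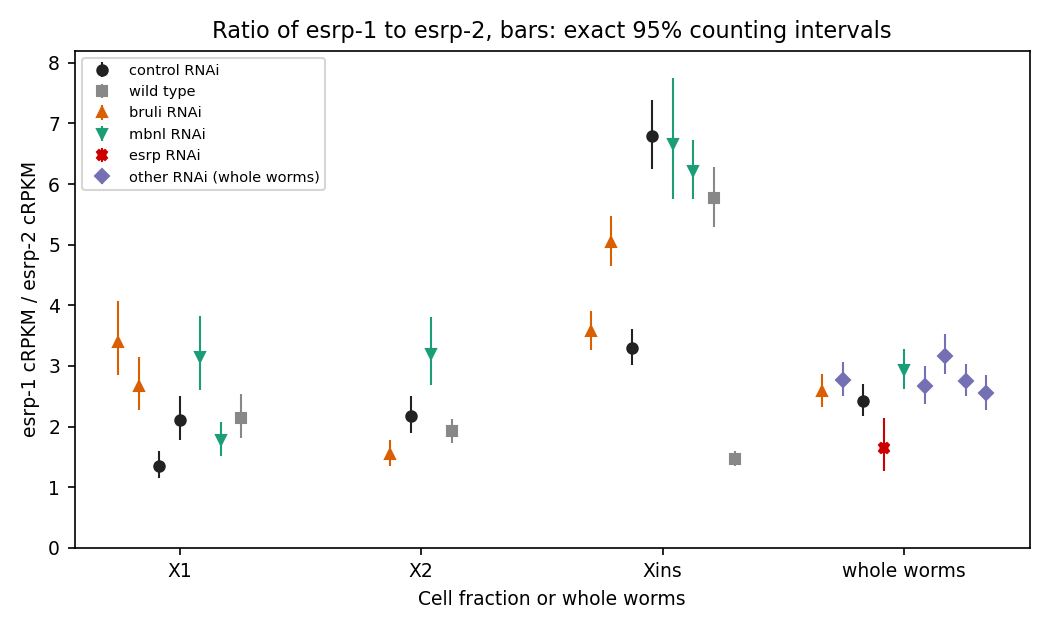
Ratio of esrp-1 to esrp-2 cRPKM in each of the 28 libraries, with exact 95% counting intervals. Of the 8 Xins libraries 7 lie at 3.30 or above and Xins wild type replicate 2 at 1.47, the 8 whole worm libraries without esrp dsRNA lie between 2.43 and 3.17, and the esrp RNAi library is at 1.65.

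Within a fraction the 2 genes did not track each other detectably. Over the 7 X1 libraries Pearson's r of log2 TMM-scaled CPM was 0.07 (exact permutation p = 0.904) and Spearman's rho 0.36 (p = 0.444). Over the 8 Xins libraries r was -0.65 (exact permutation p = 0.0702, 0.211 adjusted over the 3 sets of libraries) and rho -0.38 (p = 0.36). Without the 2 libraries farthest from the esrp-1 median, which include Xins wild type replicate 2, r was 0.03. The part of each single library in the negative value was not tested. Over the 8 whole worm libraries without esrp dsRNA r was 0.41 (exact permutation p = 0.307) and rho 0.31 (p = 0.462), and without the 2 farthest r was 0.10. In X1 r was 0.13 without the 2 farthest libraries.

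Neither gene was called different in bruli(RNAi) or mbnl(RNAi) cells, although esrp-1 was higher in both bruli(RNAi) X1 libraries than in all 3 unperturbed ones. For esrp-1 in X1 the TMM-scaled CPM was 33.5 and 26.1 in bruli(RNAi) replicates 1 and 2 and 34.0 and 17.6 in mbnl(RNAi), against 20.3 and 18.2 in control(RNAi). Both bruli(RNAi) libraries were above both controls, whereas the mbnl(RNAi) libraries lay on either side of them. In Xins esrp-1 was 93.8 and 78.8 in bruli(RNAi), 83.0 and 102 in mbnl(RNAi) and 76.4 and 103 in control(RNAi), which overlapped.

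For esrp-2 in X1 the TMM-scaled CPM was 10.2 and 10.0 in bruli(RNAi) and 11.1 and 10.2 in mbnl(RNAi), against 15.5 and 8.87 in control(RNAi), so both knockdowns lay between the 2 controls. In Xins it was 27.1 and 16.1 in bruli(RNAi) and 12.8 and 16.8 in mbnl(RNAi), against 23.8 and 15.7 in control(RNAi). These groups overlapped too.

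In the edgeR fit of the 12 sorted RNAi libraries neither gene was called in any of these 4 comparisons, and neither was any other of the 12494 transcripts tested, 0% in each. At an unadjusted p under 0.05 there were 890 transcripts for bruli(RNAi) in X1, 79 for bruli(RNAi) in Xins, 212 for mbnl(RNAi) in X1 and 202 for mbnl(RNAi) in Xins. DESeq2 called 109, 7, 1 and 2, limma on cRPKM 3, 0, 0 and 0, and edgeR with a replicate block 128, 0, 0 and 0. In the fit without a block even the dsRNA target bruli was not called in X1 (log2 difference -2.94, edgeR adjusted p = 0.0723). The absence of a call therefore does not show that a transcript was unchanged. The largest member difference was that of esrp-1 in bruli(RNAi) X1, 0.65 on the log2 scale (SE 0.34, 95% interval -0.12 to 1.41, unadjusted p = 0.0893, adjusted p = 0.818). It was 0.72 between the libraries numbered 1 and 0.52 between those numbered 2. The summed neoblast markers moved in the same libraries, from 14600 and 15200 in control(RNAi) to 6050 and 5700 in bruli(RNAi), of which bruli itself went from 1040 and 1360 to 130 and 179. Of the 8 differentiated markers 7 had a log2 difference above 0, with a median of 0.73 over all 8 and the ELAVL4-like comp10994_c0_seq1 at -0.33, and none was called. Their sum was 53.3 and 53.0 against 49.2 and 61.3, most of it from comp10994_c0_seq1. The part of these differences in the esrp-1 value was not tested.

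For mbnl(RNAi) in X1 esrp-1 was 0.43 (-0.34 to 1.19), but 0.74 between the libraries numbered 1 and -0.05 between those numbered 2. In Xins the esrp-1 differences were -0.05 (-0.81 to 0.71) for bruli(RNAi) and 0.04 (-0.72 to 0.79) for mbnl(RNAi). For esrp-2 in X1 they were -0.25 (-1.17 to 0.67) and -0.19 (-1.11 to 0.73). In Xins they were 0.13 (-0.77 to 1.04) and -0.42 (-1.33 to 0.50). All these intervals included 0, and with 2 libraries a group the standard errors of the 8 differences were 0.34 to 0.41. For esrp-2 in X1 the 2 replicate numbers gave opposite signs, -0.61 and 0.18 for bruli(RNAi) and -0.48 and 0.20 for mbnl(RNAi).

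The step from X1 to Xins was also seen in the knockdown animals for esrp-1. In bruli(RNAi) X1 minus Xins was -1.69 (SE 0.35, adjusted p = 0.0021), where 34.5% of transcripts were called lower, and -1.49 and -1.60 within replicates 1 and 2. In mbnl(RNAi) it was -1.99 (SE 0.35, adjusted p = 0.000764), where 36.3% were called lower, and -1.29 and -2.53 within replicates 1 and 2. In control(RNAi) the same pairs gave -1.91 and -2.51, so all 6 numbered pairs had less esrp-1 in X1. The pairs use CPM scaled over all 28 libraries and the fit its own 12, and the fitted -1.69 in bruli(RNAi) lies outside its pairs.

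For esrp-2 X1 minus Xins was called in bruli(RNAi), at -1.25 (SE 0.41, adjusted p = 0.0236), but not without either X1 bruli(RNAi) library or without Xins bruli(RNAi) replicate 1 (adjusted p = 0.0956, 0.106 and 0.152). In mbnl(RNAi) it was -0.63 (SE 0.41, adjusted p = 0.191). The 6 numbered pairs ran from -0.21 to -1.42, all with less esrp-2 in X1. Whether the knockdowns changed the step itself was tested as the difference of the 2 effects. For esrp-1 it was 0.70 (-0.38 to 1.77) with bruli and 0.39 (-0.69 to 1.46) with mbnl, and for esrp-2 -0.39 (-1.68 to 0.91) and 0.23 (-1.07 to 1.52). None was called, nor was any transcript (0% for both, with 343 and 107 at an unadjusted p under 0.05, and with 7 and 0 called by DESeq2).

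In X2 each knockdown had 1 library and no replicate check. esrp-1 was at 7.17 cRPKM in bruli(RNAi), 6.95 in mbnl(RNAi) and 7.02 in control(RNAi). esrp-2 was at 4.63, 2.18 and 3.22. On the log2(cRPKM + 1) scale esrp-1 differed by 0.03 and -0.01 and esrp-2 by 0.42 and -0.41, so neither gene passed 0.7, which 9.26% of 10459 transcripts did for bruli(RNAi) and 16.6% for mbnl(RNAi). As a share of control CPM, esrp-2 was 139% (exact 95% counting interval 119 to 163) and 67.3% (55.5 to 81.4), on opposite sides of the control, and esrp-1 was 99.1% and 98.5%. With TMM scaling the shares in mbnl(RNAi) were 80.9% for esrp-2 and 118% for esrp-1, and in bruli(RNAi) 137% and 97.5%.

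The level of both genes in whole worms was steady across knockdowns other than their own. Over the 8 whole worm libraries without esrp dsRNA the TMM-scaled CPM of esrp-1 had a low of 76.0, a median of 78.3 and a high of 94.8, and that of esrp-2 a low of 28.6, a median of 30.6 and a high of 35.4. Both genes thus varied by less than 10% as a coefficient of variation, 8.70% and 7.09%. The ratio of the genes per length had a low of 2.43, a median of 2.72 and a high of 3.17. On the same scale 7 of the 8 Xins libraries had less esrp-2 (12.8 to 27.1) than any of these whole worms.

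The celf, nova, ptbp, rbfox1 and rbfoxS dsRNAs target other splicing regulators. As a share of control CPM, esrp-1 was between 98.0% (nova) and 121% (rbfox1) in the 7 other knockdowns and esrp-2 between 89.0% (nova) and 107% (rbfox1). For esrp-1 the counting interval lay above 100% in 3 of them: rbfox1 (112 to 131), ptbp (109 to 128) and bruli (101 to 119), though the TMM-scaled share in bruli was 97.5%. For esrp-2 every interval of the 7 included 100%. Each value compares 1 library with 1 control library and not the conditions.

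In esrp(RNAi) whole worms both targets were low, which checks the label. esrp-1 had 155 counts against 1163 in control(RNAi), or 3.33 against 29.82 cRPKM, and esrp-2 had 97 against 494, or 2.02 against 12.29 cRPKM. For both genes this library lay below all 8 other whole worms, whose lowest values were 29.23 cRPKM for esrp-1 and 10.94 for esrp-2. On the log2(cRPKM + 1) scale, which understates the change of low transcripts, the differences were -2.83 and -2.14, ranks 4 and 9 from the lowest among 12572 transcripts, of which 64 or 0.509% were lower by at least 0.7.

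The remaining share of control CPM was 11.2% for esrp-1 (exact 95% counting interval 9.39 to 13.2) and 16.5% for esrp-2 (13.1 to 20.5). The ratio of the 2 genes fell with it, from 2.43 (2.18 to 2.70) in control(RNAi) to 1.65 (1.27 to 2.15). The odds ratio of the counts in these 2 libraries was 0.679 (exact 95% interval 0.512 to 0.904), which compares the libraries and not the conditions. esrp-1 thus kept the smaller share of the pair in this library.

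**Figure D4:**
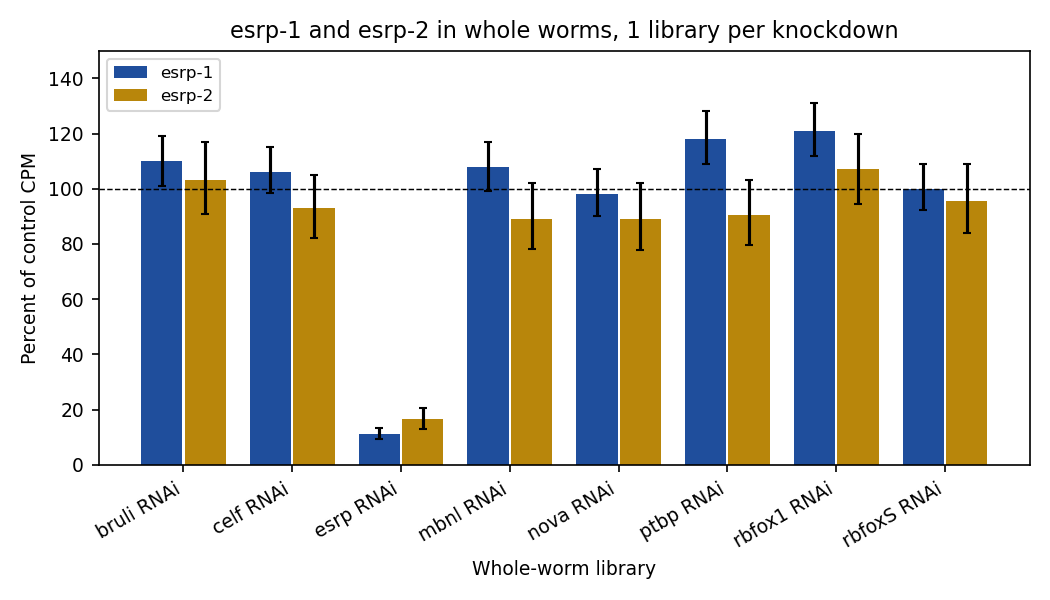
esrp-1 and esrp-2 in 8 whole worm knockdown libraries as percent of their CPM in the control(RNAi) library, with exact 95% counting intervals and the control at 100%. Both bars fall below 20% only for esrp dsRNA (11.2% and 16.5%), and the other bars lie between 89.0% and 121%.

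No other named transcript passed the same threshold. Of 319 RNA-binding protein and spliceosome transcripts named by the study and past the filter, 2 were lower by at least 0.7 in esrp(RNAi) worms, esrp-1 and esrp-2 themselves, and 0 were higher. Among all 12572 transcripts 98 were higher and 64 lower by that amount, of which 20 and 44 lay outside the range of the other 8 whole worms. Apart from esrp-1 and esrp-2 the transcripts past this threshold carry no name in the tables used here. The other members of the epithelial list were near their control level: the A1CF-like comp10996_c0_seq1 at 0.15, comp2228_c0_seq1 at 0.00 and comp7056_c0_seq1 at -0.07. The median log2 difference was 0.05 over the 15 measured RNAi target genes, 0.02 over 77 core spliceosome transcripts and 0.06 over all transcripts.

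The epithelial list holds esrp-1, esrp-2, 3 transcripts whose best human match is A1CF, a cofactor of apolipoprotein B mRNA editing, and 1 matching RBM47, its relative in vertebrate epithelia. RBM47 (comp62256_c0_seq1) did not pass the filter, with a mean of 0.902 ± 0.211 (SD, n = 3) TMM-scaled CPM in X1 and 0.193 ± 0.127 (SD, n = 4) in Xins. Of the 5 tested, all were called lower in X1 than in Xins with a median of -2.31, against -0.15 over all transcripts, of which 43.3% were called lower. The list was chosen with these results known, and esrp-1 is itself its median. Its largest differences were those of comp7056_c0_seq1 (-5.50, adjusted p = 0.000103) and comp2228_c0_seq1 (-5.47, adjusted p = 4.16e-05), and comp10996_c0_seq1 stood at -2.08 (adjusted p = 1.12e-05). From X1 to X2 the 3 A1CF-like transcripts were called higher, by 0.97, 4.87 and 2.89 for comp10996_c0_seq1, comp2228_c0_seq1 and comp7056_c0_seq1, while neither esrp gene was. Of all 12665 transcripts tested 3205 were called higher in that comparison. The difference between the A1CF-like and the esrp transcripts was not tested.

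**Figure D5:**
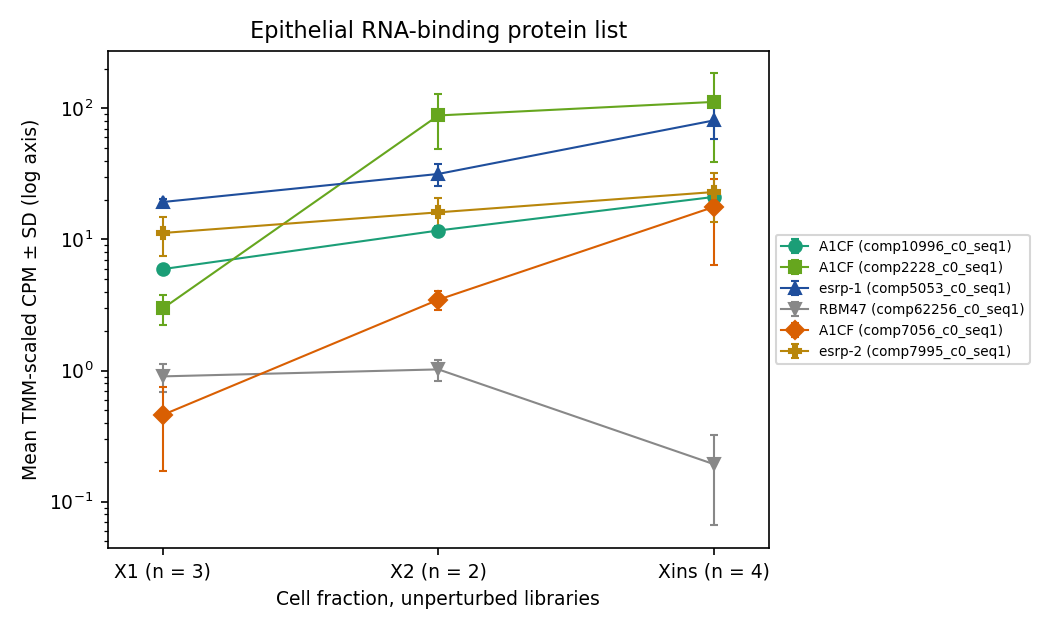
Mean TMM-scaled CPM ± SD (log axis) of the 6 transcripts of the epithelial list in unperturbed X1 (n = 3), X2 (n = 2) and Xins (n = 4) libraries. esrp-1 goes from 19.3 to 31.6 and 80.9 and esrp-2 from 11.2 to 16.1 and 23.0, while comp2228_c0_seq1 goes from 2.98 to 88.3 and 112.

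Among the splicing regulators that the study knocked down, 15 passed the filter, of which 10 were called lower and 4 higher in X1 than in Xins. Over all 12665 transcripts tested 5481 (43.3%) were called lower and 4819 higher. nova-1 (-2.49), a relative of vertebrate neuronal splicing regulators, and nova-2 (-1.90) had differences near that of esrp-1. nova-3 was at -0.98 and mbnl-1 at -0.64. Further from it were celf-2 (-7.31), rbfox-2 (-6.40), rbfox-3 (-4.68) and ptbp-4 (-4.25). The 4 called higher were bruli (4.86), rbfox-1 (2.86), ptbp-2 (2.66) and ptbp-3 (2.16), and mbnl-like-1 was not called (0.30, adjusted p = 0.304). mbnl-like-3 and 2 transcripts named nova-4 did not pass the filter. The remaining targets, mbnl-like-2, ptbp-1, celf-3 and celf-1, were not among the 22944 transcripts counted.

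Most RNA-binding protein and spliceosome transcripts were higher in X1, unlike the esrp genes, whereas most of the neural list was lower. Of 283 RNA-binding protein transcripts tested, 43 were called lower and 225 higher in X1 than in Xins, with a median of 1.63. Over all 12665 transcripts 5481 (43.3%) were called lower and 4819 higher, with a median of -0.15. Of 77 core spliceosome transcripts 76 were called higher and 0 lower (median 2.02), and all 15 SR and TRA2 splicing factors were higher (median 1.87). Of 19 transcripts on the neural list 15 were lower and 4 higher (median -2.45), and of 3 on the muscle list 2 were lower and 0 higher (median -5.12). With 2 of the 43 lower transcripts, the esrp genes were in the minority among RNA-binding proteins.

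The transcripts most like each gene were sought among 317 other named ones by Pearson's r of log2(TMM-scaled CPM + 1) over the 19 sorted libraries. These share fractions and replicate numbers, so r is given as a description with no test. Most like esrp-1 were nova-2 (0.94), nova-1 (0.90), an RBMS1-like transcript (comp11402_c0_seq1, 0.90), a DHX8-like spliceosomal helicase (0.89) and a TIA1-like transcript (comp10924_c0_seq1, 0.89). Least like it were a core spliceosome transcript annotated as KEGG ortholog K12861 (-0.96), an SRSF3-like SR protein (-0.95) and a second TIA1-like transcript (comp2434_c0_seq1, -0.95). The 2 TIA1-like transcripts thus stood at opposite ends.

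Most like esrp-2 were 2 RBMS1-like transcripts (comp11402_c0_seq1 and comp3832_c0_seq1, 0.76 each), the A1CF-like comp7056_c0_seq1 (0.75), a PCBP3-like poly(C)-binding protein (0.73) and nova-1 (0.72). Least like it were a core spliceosome transcript annotated as K12827 (-0.81), a DDX18-like helicase (-0.80) and the ZMAT2-like comp3008_c0_seq1 (-0.80). comp11402_c0_seq1 and nova-1 were on both lists. The 2 esrp genes had an r of 0.57 with each other. By that measure esrp-2 ranked 34 of 317 for esrp-1 and esrp-1 ranked 26 of 317 for esrp-2, and among all 12319 other transcripts past the filter the ranks were 4401 and 3284. Neither was among the nearest of the other.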

How the data were processed

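Poly-A selected RNA was sequenced by the authors on an Illumina HiSeq2000 from TruSeq libraries. The deposited tables hold, per transcript of a de novo transcriptome, a cRPKM (an RPKM over mappable positions only) and a raw count. Per the labels Bowtie was used, with a version not given in the sources used here. Blank counts were read as 0. In the sorted RNAi libraries numbered 1 the total implied by cRPKM was 1.16 to 1.30 times the sum of deposited counts (1.00 elsewhere), which lowers cRPKM there but no count.

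Counts were fitted with edgeR 4.0.16 (quasi-likelihood, TMM) in R 4.3.3, for transcripts with a mean log2(cRPKM + 1) above 1.5, with Benjamini-Hochberg adjustment and a threshold of 0.05, in 1 fit of the 9 unperturbed sorted libraries and 1 of the 12 sorted X1 and Xins RNAi libraries. Printed CPM were TMM-scaled over all 28 libraries. Ratios were tested by exact permutation (Python 3.11.15). Single libraries were compared on log2(cRPKM + 1), with a threshold of 0.7. Alternatives were DESeq2 1.42.0 and its size factors, limma 3.58.1, quantile normalization, no filter, a replicate block, left-out libraries and other pseudocounts. Scripts were tested on simulated data. Replicate libraries of a group correlated at 0.958 to 0.983 and were not duplicates (at most 4.1% of counts identical).

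The members and lists were chosen with earlier results of these data known. Named transcripts are both members, the neoblast and differentiated cell markers, all of the epithelial and RNAi target lists, the 5 most and 3 least like each member, and those past 0.7 in esrp(RNAi) worms and outside the other 8.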

Additional observations from a re-analysis of the deposited data

How the results depend on the processing

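The esrp-1 differences of X1 and X2 from Xins kept direction and call under every alternative run, with leave-one-out ranges of -2.54 to -2.18 and -1.82 to -1.38. esrp-2 X1 minus Xins ranged from -1.55 to -1.04 without single libraries, lost its call at -1.04 and -1.07 without X1 control(RNAi) replicate 2 or X1 wild type, at -0.86 within control(RNAi) alone (an alternative added after seeing the data), and at -0.22 after quantile normalization. esrp-1 X2 minus X1 ranged from 0.51 to 0.92 and passed the threshold only without Xins wild type replicate 2 (0.73). esrp-2 X1 minus Xins in bruli(RNAi) ranged from -1.69 to -0.88. Under quantile normalization esrp-2 was also -0.21 for X1 minus Xins in bruli(RNAi), where the call was lost, 0.29 in mbnl(RNAi) and 0.04 for X2 minus Xins, both with a changed sign and not called in either setting. The cause was not tested.

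Values that were never called changed sign when single libraries were left out. For bruli(RNAi) the ranges were -0.61 to 0.20 (esrp-2, X1), -0.24 to 0.18 (esrp-1, Xins) and -0.29 to 0.48 (esrp-2, Xins). For mbnl(RNAi) they were -0.14 to 0.83 (esrp-1, X1), -0.54 to 0.27 (esrp-2, X1) and -0.20 to 0.27 (esrp-1, Xins, which was also -0.10 with limma on cRPKM). The effect differences between fractions ranged from -0.74 to 0.07 (esrp-2, bruli), -0.18 to 0.80 (esrp-1, mbnl) and -0.12 to 0.69 (esrp-2, mbnl). With all sorted libraries the log2 ratio differences were -0.96 (X1 minus Xins) and -1.05 (X2 minus Xins), both then past the threshold. Without Xins wild type replicate 2, added after seeing the data, they were -1.18 and -1.27. X2 minus X1 was -0.09 with all sorted libraries. Over the unperturbed libraries alone it was 0.16 and ranged from -0.06 to 0.27 without single libraries. The esrp(RNAi) differences of esrp-1 were -3.12 with a pseudocount of 0.1 and -3.08 on TMM-scaled CPM, and that of esrp-2 -2.55 with a pseudocount of 0.1. In X2 esrp-1 was -0.01 (plain CPM) and -0.03 (TMM-scaled) for bruli(RNAi) and 0.24 (TMM-scaled) for mbnl(RNAi).

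Deviations of samples with the same replicate number correlated at over 0.1 in 14 of 15 pairs of groups. Over all 15 pairs the correlations ran from 0.03 to 0.70, with 2 numbers a group. The labels do not say what a number stands for. With a replicate block no call of either gene changed (esrp-2 X1 minus Xins -1.21, adjusted p = 0.0184 in edgeR), while 128 transcripts were called for bruli(RNAi) in X1 in place of 0. DESeq2 called 109 there, 7 for bruli(RNAi) in Xins, 1 and 2 for mbnl(RNAi) in X1 and Xins and 7 for the difference of bruli effects, limma 3 for bruli(RNAi) in X1 with and without quantile normalization, and edgeR 3 for bruli(RNAi) in Xins without Xins control(RNAi) replicate 2, against 0 each. esrp-2 had 148 to 277 counts in X1 libraries.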
